A study of Mus musculus with 19 samples.

Results

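The members described here are 8 transcription factor genes of the immediate early class: Egr1, Egr2, Egr3 and Egr4, Nr4a1, Nr4a2 and Nr4a3, and Npas4. They were chosen by symbol, as 8 of the 20436 genes listed in both count tables, and each of the 8 passed the filter on low counts in RNA and in ribosome-protected fragments. Acute hippocampal slices of wild-type male mice, which in these replicates kept CA3, were incubated with vehicle (basal) or with DHPG at 100 µM for 5 min and then stopped with cycloheximide at 100 µg/ml. DHPG activates the group I metabotropic glutamate receptors mGluR1 and mGluR5 and induces a long-term depression of synapses that needs protein synthesis. The labels give the age as 28 to 42 days, and slices of several mice were pooled for each replicate. Each lysate was divided between RNA-seq, for RNA levels, and ribosome profiling, for ribosome-protected fragments (RPFs), the pieces of mRNA that ribosomes shield from nuclease. Of 19 libraries, 4 were basal RNA, 5 DHPG RNA, 5 basal RPF and 5 DHPG RPF. No basal RNA library of replicate 5 was among them, so DHPG RNA replicate 5 has no partner in the paired comparisons. The question was whether these genes differed between DHPG and basal slices at the level of RNA, of RPFs, or of translational efficiency (TE), the ratio of RPF to RNA.

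Immediate early genes are transcribed within minutes of a stimulus, without new protein synthesis, because their activators are already in the nucleus and need only be phosphorylated or joined by a coactivator. In neurons, calcium entry and the ERK pathway reach their promoters through CREB, which binds the cAMP response element, and through serum response factor, which binds the CArG box of the serum response element together with Elk factors. Egr1 to Egr4 are zinc finger proteins that bind GC-rich sites, and Egr1 (also called Zif268) is widely used as a marker of active hippocampal neurons. Nr4a1 (Nur77), Nr4a2 (Nurr1) and Nr4a3 (Nor1) are orphan nuclear receptors that act without a known physiological ligand and have been tied to the consolidation of hippocampal memory. Npas4 is a bHLH-PAS factor that pairs with Arnt proteins, answers to calcium rather than to growth factors, and regulates inhibitory synapses onto excitatory neurons.

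Promoter windows of RefSeq (GRCm38.p6) were matched by symbol for 6 of the 8 members: Egr2, Egr4, Nr4a1, Nr4a2, Nr4a3 and Npas4. Each window runs from 250 bases before to 50 bases after a transcription start, and both strands were searched. The core of the cAMP response element, TGACG, was found in 6 of these 6 genes, while 20.8% of all 32851 windows and 23% of all 27025 genes hold it. The CArG box was found in 1 of these 6, Egr2, against 1.63% of windows and 1.81% of genes. Egr1 and Egr3 had no matched window and were not searched. The GC-rich site GCGGGGGCG was found in Nr4a1 (2.91% of windows and 3.31% of genes). Found in 0 of the 6 were the full palindrome TGACGTCA (1.79% of windows, and it contains TGACG), the Egr site GCGTGGGCG (0.612%) and the Nr4a site AAAGGTCA (1.51%). A match describes the letters of the window and is no evidence of binding in these slices. The 250 bases before a start are shown for 4 members. Egr2 is shown because it alone of the 6 searched holds a CArG box beside TGACG. Nr4a1 and Nr4a3 are examples of the Nr4a genes, each of which holds 4 copies of TGACG. Npas4 is shown because its 2 copies lie on opposite strands next to each other. Capitals mark every match to a searched motif, and each sequence reads 5′ to 3′ on the strand of the gene. The windows are chr10:67537619-67537868 on the plus strand for Egr2, chr15:101266596-101266845 on the plus strand for Nr4a1, chr4:48045055-48045304 on the plus strand for Nr4a3 and chr19:4989972-4990221 on the minus strand for Npas4.
Egr2: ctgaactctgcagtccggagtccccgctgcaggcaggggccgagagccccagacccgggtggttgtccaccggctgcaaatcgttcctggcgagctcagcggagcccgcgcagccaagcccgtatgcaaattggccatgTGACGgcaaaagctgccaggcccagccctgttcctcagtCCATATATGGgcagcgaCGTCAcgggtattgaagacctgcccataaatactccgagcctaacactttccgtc
Nr4a1: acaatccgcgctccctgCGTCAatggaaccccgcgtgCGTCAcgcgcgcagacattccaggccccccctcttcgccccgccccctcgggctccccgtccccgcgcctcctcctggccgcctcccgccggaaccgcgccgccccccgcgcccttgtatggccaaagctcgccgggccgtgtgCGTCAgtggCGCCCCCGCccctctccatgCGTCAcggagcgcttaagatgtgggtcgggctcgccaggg
Nr4a3: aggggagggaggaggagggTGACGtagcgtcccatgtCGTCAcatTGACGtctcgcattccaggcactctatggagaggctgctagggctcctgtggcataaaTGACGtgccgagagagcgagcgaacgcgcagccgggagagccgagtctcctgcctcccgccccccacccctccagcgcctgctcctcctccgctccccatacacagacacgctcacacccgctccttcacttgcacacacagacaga
Npas4: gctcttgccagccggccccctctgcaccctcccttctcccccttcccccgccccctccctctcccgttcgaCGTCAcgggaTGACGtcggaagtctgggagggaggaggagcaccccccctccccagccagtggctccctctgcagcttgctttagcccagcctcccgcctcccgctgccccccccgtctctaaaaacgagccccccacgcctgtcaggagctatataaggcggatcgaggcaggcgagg
In Egr2, which has more than 1 start, the CArG box of the window shown stands between the 2 copies of TGACG. In Nr4a1 the GC-rich site stands between copies of TGACG as well.

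RNA libraries held 4870813 to 7793244 counts in total, and RPF libraries 5692064 to 22092434. Egr2 was the most thinly covered member, with 52 to 101 counts in the RNA libraries and 122 to 477 in the RPF libraries, and Egr1 had the most RPF counts, 3047 to 15310. Same-numbered libraries deviated from their group means together, so the replicate number was kept as a block in the fits. Defining markers of excitatory neurons, interneurons, astrocytes, oligodendrocytes, microglia and endothelial cells were present in every library and none was at 0. Of 5 listed markers of CA3 neurons, 4 were tested, all but Nectin3. These were likewise present, summing to 233 to 264 CPM in basal RNA. Slices mix these cells, and in such bulk samples fewer cells of a type and less RNA per cell cannot be told apart.

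In basal slices Nr4a1 was the most abundant of the 8 RNAs, and Egr1 carried by far the most RPFs per coding base. Levels of different genes are compared per length, as RPKM (reads scaled to library size and feature length), with RNA divided by transcript length and RPF by coding length less 60 bases. Nr4a1 RNA was at 60.1 ± 8.28 RPKM (SD, n = 4), above 90.7% of genes, and its range in the 4 basal libraries did not overlap that of the next member. Npas4 with 29.4 ± 4.86 RPKM (SD, n = 4) and Egr1 with 27.4 ± 7.83 RPKM (SD, n = 4) followed, and Npas4 was above Egr1 in 3 of 4 replicates. Below them Egr4 (19.9 RPKM), Nr4a2 (16.97 RPKM), Egr3 (11.01 RPKM) and Nr4a3 (10.5 RPKM) overlapped from each to the next. Egr2 RNA was lowest, at 3.49 ± 0.88 RPKM (SD, n = 4), with a range apart from that of Nr4a3.

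**Figure D1:**
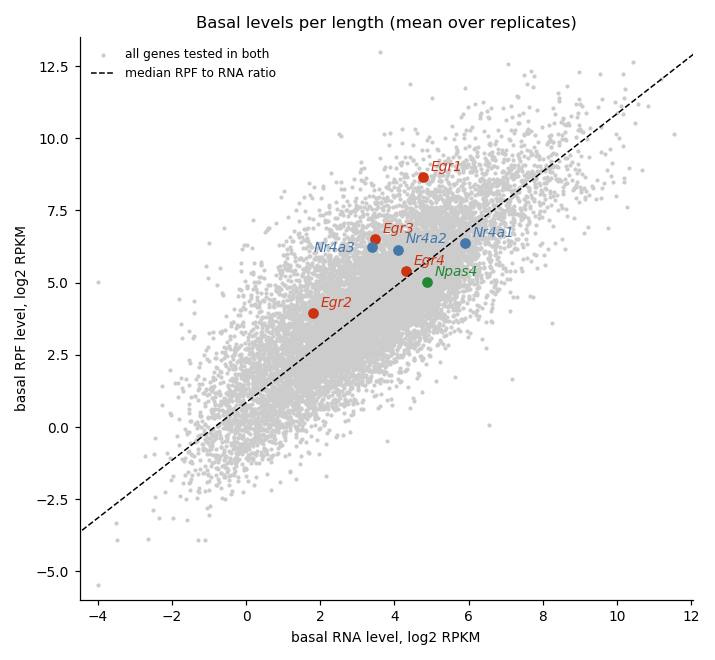
Basal RPF level against basal RNA level per length, both as log2 RPKM and as means over replicates, for all genes tested in both assays (grey) and for the Egr genes (red), Nr4a genes (blue) and Npas4 (green), with the median RPF to RNA ratio as a dashed line. Egr1, Egr3, Nr4a3, Egr2 and Nr4a2 lie above the line, Egr4 lies near it, and Nr4a1 and Npas4 lie below it.

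The order of the RPF levels was a different one. Egr1 had 403 ± 38.3 RPKM of RPFs (SD, n = 5), above 96.4% of genes, and its lowest basal library lay above the highest of any other member. Egr3 (91.6 RPKM), Nr4a1 (83.5 RPKM), Nr4a3 (74.8 RPKM) and Nr4a2 (70.9 RPKM) formed a middle group in which neighbours overlapped, although Egr3 was above Nr4a1 in 5 of 5 replicates. Egr4 (42.3 RPKM) and Npas4 (32.3 RPKM) overlapped each other below that group, and Egr2 was again lowest at 15.6 ± 1.04 RPKM (SD, n = 5). As a share of the 4 Egr genes, Egr1 made up 44.1% ± 6.28 (SD, n = 4) of the RNA level and 72.8% ± 2.95 (SD, n = 5) of the RPF level. Egr4 made up 32.3% ± 5.50 (SD, n = 4) of the RNA level and 7.72% ± 1.69 (SD, n = 5) of the RPF level. Among the Nr4a genes, Nr4a1 was 68.4% ± 5.14 (SD, n = 4) of the RNA level and 36.5% ± 2.11 (SD, n = 5) of the RPF level, and the 3 receptors were near parity in RPFs. The scatter plot of basal levels shows the same exchange of places as a distance from the median line.

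Basal TE, given as log2 RPF RPKM less log2 RNA RPKM relative to the median of 12230 genes, spread the 8 factors over much of the range of all genes, whose 10th and 90th percentiles were -1.72 and 2.10. Egr1 had the highest, 2.57, 2.99, 2.92 and 3.78 in basal replicates 1 to 4. Its mean of 3.06 ± 0.51 (SD, n = 4) is 8.37 times the median gene and above 96.1% of genes. Egr3 with 2.23 ± 0.48 (SD, n = 4), Nr4a3 with 1.98 ± 0.23 (SD, n = 4), Egr2 with 1.34 ± 0.46 (SD, n = 4) and Nr4a2 with 1.23 ± 0.12 (SD, n = 4) also lay above the median in each of the 4 replicates. Egr4 differed in sign between replicates, with 0.72, -0.36, -0.50 and 1.004, so that its mean of 0.22 ± 0.76 (SD, n = 4) is not separable from the median gene. Nr4a1 was at -0.39 ± 0.33 (SD, n = 4), with 3 replicates below the median and replicate 4 at 0.09. Npas4 was lowest and below the median in each replicate, with -0.58, -0.79, -0.996 and -0.34 and a mean of -0.68 ± 0.28 (SD, n = 4), above only 31.8% of genes. Neighbours in this order overlapped except for Nr4a2 and Egr4. Replicate 4 had the highest basal TE for 8 of the 8 members, as for 32.2% of genes. The values depend on the transcript taken: with mean lengths over coding transcripts Egr3 was at 1.72 and Npas4 at -0.33, and without any length correction Egr1 was at 2.55, Egr3 at 1.41, Nr4a3 at 1.35, Nr4a1 at 0.09 and Npas4 at -0.27.

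After DHPG the RNA level of 7 of the 8 members was higher than in basal slices, by amounts that did not pass the test. Of all genes tested, 52.1% were higher in RNA. Across all genes, 0 of the 8 passed an adjusted p of 0.01 in edgeR's quasi-likelihood test, beside 0.00773% of 12935 genes. At an unadjusted p under 0.05, 6 of the 8 were higher and 0 lower, where 5.2% of all genes were higher at that level. The median log2 fold change of the 8 was 0.24, beside 0.0068 over all genes. Only Egr1 and Nr4a1 were higher in every pair, as were 8.67% of all genes. DESeq2 with the block called 0 of the 8, with 3 higher at an unadjusted p under 0.05 beside 1.54% of genes. ComBat by replicate number followed by DESeq2 called Egr1 alone among the members, beside 1.55% of genes. Without replicate 3 the members higher at an unadjusted p under 0.05 numbered 3, beside 4.27% of genes.

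Egr1 lies on chromosome 18 of mm10 (34859823 to 34864984, plus strand) and had the lowest p of the family. Egr1 RNA was at 145, 133, 143 and 71.0 CPM (counts scaled to library size) in basal replicates 1 to 4 and at 194, 162, 154, 117 and 75.5 CPM in DHPG replicates 1 to 5. In 4 of 4 pairs the DHPG library lay above its basal partner, but the groups overlapped, with the lowest values in basal replicate 4 and DHPG replicate 5. The log2 fold change was 0.38 ± 0.081 (SE, 95% interval 0.21 to 0.54), with an adjusted p of 0.145 in edgeR's quasi-likelihood test. It stood 6th among all genes by p. Over the alternatives its adjusted p ran from 3.77e-07 to 0.9999, passing under ComBat with DESeq2, with no filter on low counts (0.00363) and without replicate 2 (0.00613).

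Egr2, on chromosome 10 (67535475 to 67542188), is best known for its role in myelination and is inducible in neurons. Its RNA was at 13.4, 11.3, 9.26 and 7.34 CPM in basal replicates 1 to 4 and at 13.0, 15.3, 10.6, 12.1 and 11.3 CPM in DHPG replicates 1 to 5. Replicate 1 was slightly lower after DHPG, the other pairs were higher, and the groups overlapped. The log2 fold change of 0.31 ± 0.15 (SE, edgeR adjusted p = 0.616) rests on few counts. Egr3, on chromosome 14 (70077203 to 70082614), had RNA at 38.7, 57.9, 46.6 and 30.4 CPM in basal and at 44.3, 50.5, 61.2, 46.8 and 31.4 CPM in DHPG replicates. Replicate 2 went the other way from the rest, and the log2 fold change was 0.26 ± 0.099 (SE, edgeR adjusted p = 0.558). Egr4, on chromosome 6 (85511121 to 85513589), was at 32.0, 58.1, 50.3 and 30.8 CPM in basal and at 39.6, 53.8, 57.7, 51.4 and 38.8 CPM in DHPG replicates. Egr4 resembled Egr3 in being lower after DHPG in replicate 2 only, and had a log2 fold change of 0.28 ± 0.10 (SE, edgeR adjusted p = 0.545).

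The fitted RNA values of the 3 Nr4a receptors had overlapping intervals, and differences between them were not tested. Nr4a1, on chromosome 15 (101254269 to 101274795), was at 149, 168, 172 and 126 CPM of RNA in basal and at 168, 173, 175, 191 and 139 CPM in DHPG replicates. The groups overlapped, every pair was higher, and pairs 2 and 3 were nearly level. Its log2 fold change came to 0.21 ± 0.082 (SE, edgeR adjusted p = 0.555). Nr4a2, on chromosome 2 (57106830 to 57124003) and known for its need in dopamine neurons, was at 67.3, 65.3, 47.8 and 61.7 CPM in basal and at 67.2, 55.2, 49.98, 82.6 and 58.7 CPM in DHPG replicates. Here 2 of 4 pairs were higher, and the log2 fold change of 0.076 had a 95% interval of -0.11 to 0.26. Nr4a3, on chromosome 4 (48045153 to 48086447), was at 71.7, 56.9, 51.4 and 60.7 CPM in basal and at 76.0, 53.6, 54.9, 92.3 and 55.2 CPM in DHPG replicates. Its highest library by a wide margin was DHPG replicate 4, and the log2 fold change was 0.19 ± 0.091 (SE, edgeR adjusted p = 0.609).

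Npas4 was the member with a fitted RNA value below 0. It lies on chromosome 19 (4984355 to 4990316, minus strand) and was at 108, 118, 119 and 81.5 CPM in basal and at 101, 109, 107, 98.8 and 80.7 CPM in DHPG replicates. The RNA was lower after DHPG in replicates 1, 2 and 3 and higher in replicate 4, within overlapping groups. The log2 fold change was -0.019 with a 95% interval of -0.18 to 0.14, and the adjusted p in edgeR was 0.970. Its sign turned without replicate 2 (0.011) and without replicate 3 (0.028). A difference of Npas4 from the other members was not tested.

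**Figure D2:**
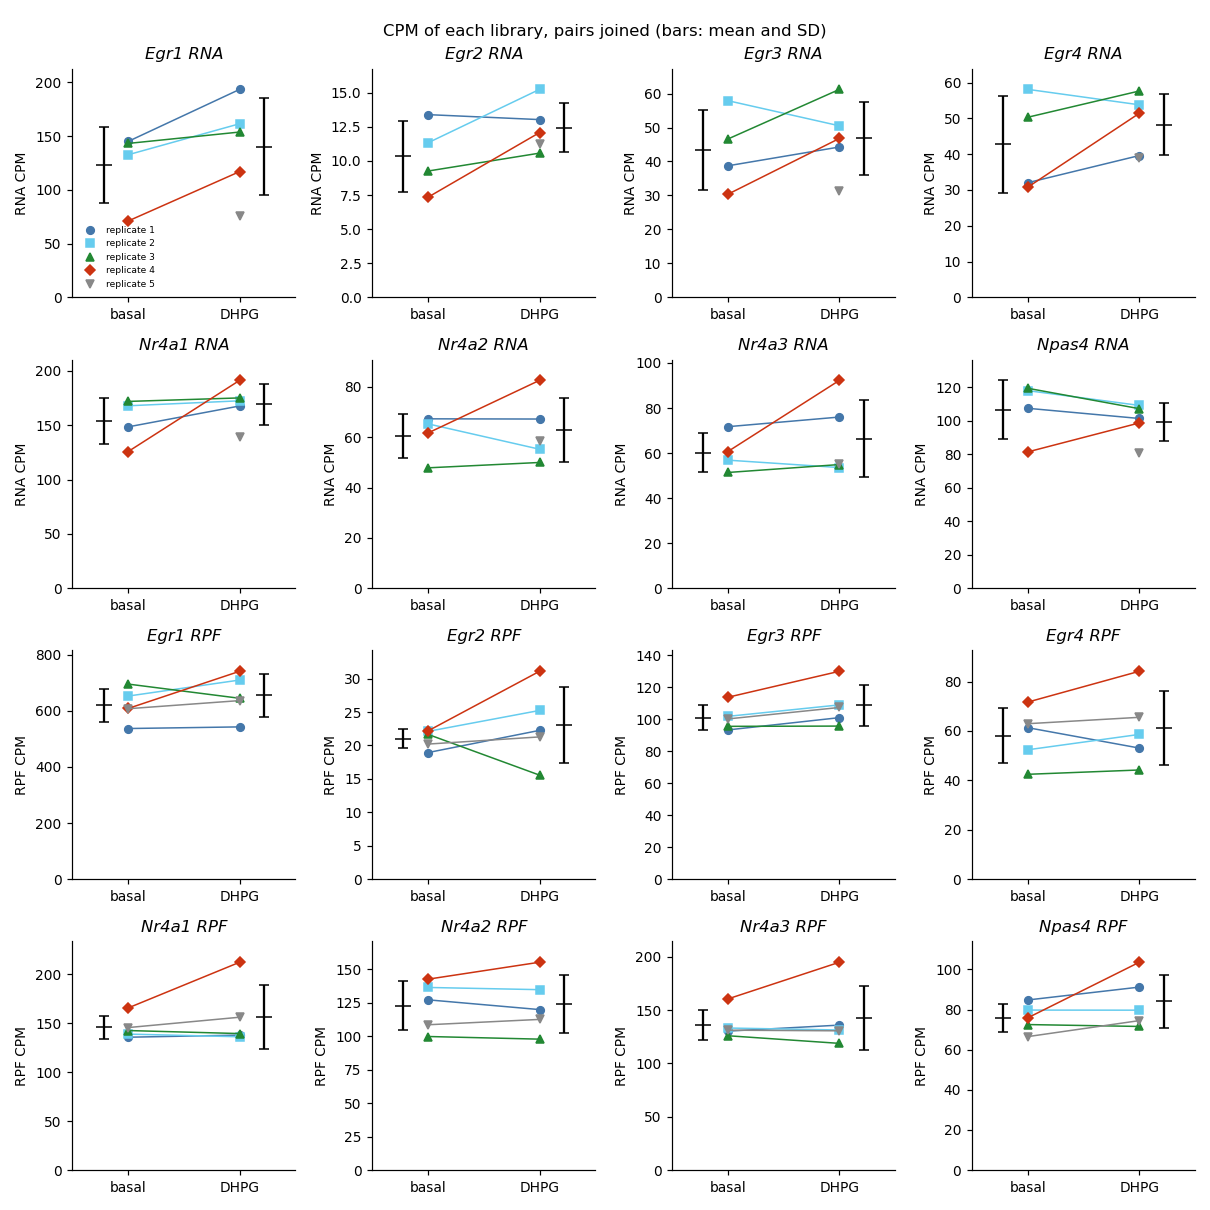
CPM of every library for each gene in RNA (upper 2 rows of panels) and RPF (lower 2 rows), basal on the left and DHPG on the right of each panel, with lines joining libraries of the same replicate number and black bars for the mean and SD of each group. The groups overlap in all panels, and replicate 4 (red) has the steepest climb in most of them.

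The RPF level was higher after DHPG for 8 of the 8 members, beside 51.4% of all genes tested. For 7 of the members, all but Npas4, the log2 fold change was smaller than in RNA. In edgeR 0 of the 8 passed an adjusted p of 0.05, beside 0.22% of 13208 genes. At an unadjusted p under 0.05, 4 of the 8 (Egr1, Egr3, Nr4a1 and Npas4) were higher and 0 lower, beside 6.55% of all genes that were higher. The median log2 fold change was 0.079, beside 0.0031 over all genes. Only Egr3 was higher in every pair, as were 5.15% of genes. In DESeq2 with the block, 2 of the 8 were higher at an unadjusted p under 0.05 beside 2.38% of genes, and 7 of the 8 were given no adjusted p. ComBat followed by DESeq2 called Egr1 alone among the members, at a log2 fold change of 0.071, beside 3.23% of genes. Without replicate 5 the members higher at an unadjusted p under 0.05 numbered 2, beside 5.95% of genes.

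Npas4 had the lowest p of the 8 in RPF, in contrast to its RNA. Npas4 RPFs were at 84.8, 79.7, 72.5, 75.9 and 66.5 CPM in basal replicates 1 to 5 and at 91.2, 79.7, 71.6, 103.6 and 74.5 CPM in DHPG replicates 1 to 5. Replicates 2 and 3 were level, replicates 1, 4 and 5 were higher, and the groups overlapped. The log2 fold change was 0.13 ± 0.046 (SE, 95% interval 0.034 to 0.22, edgeR adjusted p = 0.287), and the value was 0.051 without replicate 4. Egr3 RPFs were at 93.3, 101.8, 95.5, 113.7 and 100.2 CPM in basal and at 101.0, 108.9, 95.7, 129.9 and 107.3 CPM in DHPG replicates. Egr3 was the steadiest of the 8, with 5 of 5 pairs higher and a log2 fold change of 0.096 ± 0.037 (SE, edgeR adjusted p = 0.317), although replicate 3 was nearly level. Egr1 RPFs were at 537, 652, 695, 608 and 607 CPM in basal and at 543, 710, 644, 741 and 636 CPM in DHPG replicates. Replicate 3 was lower and the other 4 pairs were higher, with a log2 fold change of 0.075 ± 0.035 (SE, edgeR adjusted p = 0.425).

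Nr4a1 RPFs were at 136, 139, 142, 166 and 146 CPM in basal and at 138, 136, 139, 212 and 156 CPM in DHPG replicates. Pairs 1, 2 and 3 were level and replicate 4 was higher in both treatments, with a log2 fold change of 0.083 ± 0.040 (SE, edgeR adjusted p = 0.449). Nr4a3 RPFs followed the same outline, at 130.2, 133, 126, 160.4 and 131 CPM in basal and at 136, 131, 119, 195 and 131 CPM in DHPG replicates. With 2 of 5 pairs higher, the log2 fold change was 0.041 (95% interval -0.037 to 0.12). Nr4a2 RPFs were at 127, 136, 99.7, 143 and 109 CPM in basal and at 119.8, 135, 97.8, 155 and 113 CPM in DHPG replicates. Replicate 3 was low and replicate 4 high in both treatments, and the log2 fold change was 0.012 (95% interval -0.060 to 0.084). Egr4 RPFs were at 61.3, 52.4, 42.5, 71.7 and 62.9 CPM in basal and at 53.1, 58.6, 44.2, 84.1 and 65.5 CPM in DHPG replicates. Only replicate 1 was lower, and the log2 fold change was 0.084 (95% interval -0.0091 to 0.18). Egr2 RPFs were at 18.9, 22.1, 21.7, 22.2 and 20.2 CPM in basal and at 22.3, 25.2, 15.6, 31.1 and 21.3 CPM in DHPG replicates. Egr2 ranged widest, lower by 0.47 on the log2 scale in pair 3 and higher by 0.48 in pair 4, and its log2 fold change was 0.061 (95% interval -0.099 to 0.22).

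The fitted TE was lower after DHPG for 7 members and higher for Npas4, the sign opposite to that of the RNA in each of the 8. Of all genes tested, 49.5% had a higher fitted TE after DHPG. In the interaction of assay and treatment, 0 of the 8 and 0% of 12691 genes passed an adjusted p of 0.05 in edgeR, with 849 genes at an unadjusted p under 0.05, and limma also called 0 genes, with 860 at that level. Egr1 TE was lower after DHPG by a log2 fold change of -0.30 ± 0.090 (SE, edgeR adjusted p = 0.657), and was the 1 member lower at an unadjusted p under 0.05, beside 3.61% of all genes. Without replicate 2 there were 4 members lower at that level, beside 6.35% of genes. Without replicate 4 the members' median log2 fold change of TE was -0.064, against -0.16 with all replicates. In that fit 2 of the 8 were higher. At an unadjusted p under 0.05, 1 member was higher and 1 lower, beside 617 of 12716 genes in either direction. In pairs 1 to 4 the TE of Egr1 differed by -0.39, -0.18, -0.19 and -0.44, lower each time. Nr4a1 TE was also lower in 4 of 4 pairs, from -0.25 to -0.04, with a fitted value of -0.13 (95% interval -0.32 to 0.061). The fitted values of Egr2, Egr3, Egr4, Nr4a2 and Nr4a3 ran from -0.23 to -0.073 with intervals that include 0, and each was higher in 1 of 4 pairs. Npas4 TE was higher in 4 of 4 pairs, by 0.20, 0.09, 0.16 and 0.17, with a fitted value of 0.15 (95% interval -0.039 to 0.34, adjusted p = 0.791 in edgeR). The fit blocks the replicate number within each assay and does not pair the RNA and RPF libraries of a lysate. Its intervals and p-values therefore do not measure the spread of the TE differences listed by pair. The TE of a member shares its RNA and RPF libraries with the comparisons above and adds no separate evidence to them.

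**Figure D3:**
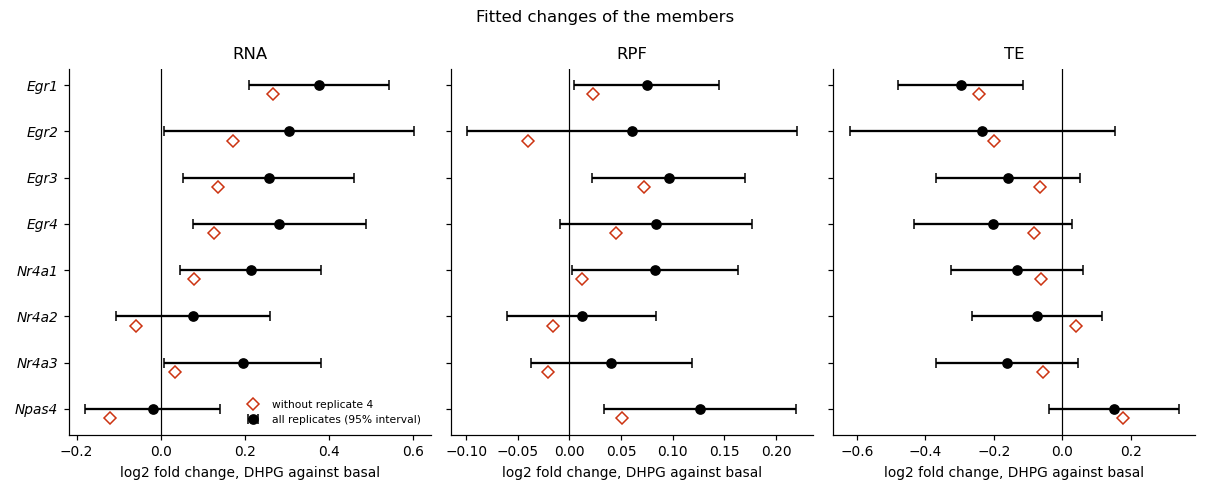
Fitted log2 fold change of DHPG against basal for each gene in RNA, RPF and TE, with 95% intervals from edgeR (black), and the same value without replicate 4 (open red diamonds). The RNA values of 7 genes lie right of 0 and the TE values of 7 genes left of 0, and all RNA and RPF diamonds lie left of their black points.

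The differences of the members between DHPG and basal were largest in replicate 4, a pattern noticed after the values were seen. In RNA the log2 changes of pair 4 spanned 0.28 to 0.73 with a median of 0.61, while the medians of pairs 1, 2 and 3 were 0.13, -0.098 and 0.099. In RPF those of pair 4 spanned 0.12 to 0.48 with a median of 0.28, while the medians of pairs 1, 2, 3 and 5 were 0.042, 0.049, -0.030 and 0.071. Pair 4 held the highest change of 8 of the 8 members in RNA and of 8 of the 8 in RPF, beside 28.4% and 23.9% of all genes. In RPF the DHPG library of replicate 4 was the highest of all 10 libraries for 8 of the 8 members, as for 13.7% of genes. In RNA the DHPG library of replicate 4 was the highest for 3 of the 8, and the share over all genes was not computed. Basal replicate 4 was itself unusual: it held the lowest basal RNA value of 6 of the 8 members (31.6% of genes) and the highest basal RPF value of 6 of the 8 (23.2% of genes).

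**Figure D4:**
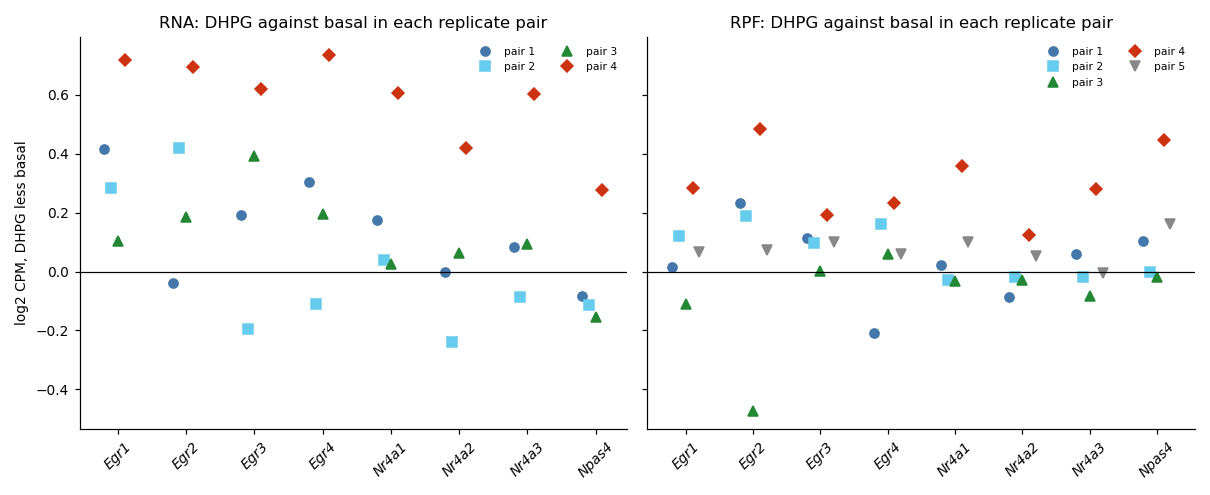
Log2 CPM of DHPG less basal in each replicate pair for each gene, in RNA (left, 4 pairs) and RPF (right, 5 pairs). The red diamonds of pair 4 are the highest point of every gene in both panels, between 0.28 and 0.73 for RNA and between 0.12 and 0.48 for RPF.

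Without replicate 4 the members' median log2 fold change was 0.10 (RNA) and 0.018 (RPF). For RNA, 6 of the 8 were still higher and 1 had an unadjusted p under 0.05, beside 3% of genes, and Egr1 had a log2 fold change of 0.27. In RPF 5 of the 8 were higher and 0 had an unadjusted p under 0.05 in edgeR, beside 5.8% of genes. Nr4a2 RNA was then at -0.058, and the RPFs of Egr2, Nr4a2 and Nr4a3 at -0.040, -0.016 and -0.021. The other RNAs lay at 0.17 for Egr2, 0.14 for Egr3, 0.13 for Egr4, 0.079 for Nr4a1, 0.035 for Nr4a3 and -0.12 for Npas4. RPF values lay at 0.023 for Egr1, 0.013 for Nr4a1, 0.045 for Egr4 and 0.072 for Egr3. The plot of changes by pair shows Egr1 RNA, Nr4a1 RNA and Egr3 RPF above 0 in all the remaining pairs, and Npas4 RNA below 0. In those pairs every other member had values on both sides of 0 in RNA, and likewise in RPF. The libraries of replicate 4 held 6873967 and 7085369 counts (basal and DHPG) in RNA and 8328372 and 10515603 in RPF. Basal replicate 4 was the deepest of the basal RNA libraries and had the highest TMM factor in both assays, 1.03 in each, and the part of this scaling in the result was not tested. The summed level of 6 markers of hippocampal excitatory neurons was higher by 0.23 (log2) in RNA pair 4, against -0.00038 to 0.099 in the other pairs, and lower by 0.030 in RPF pair 4. The summed level of 6 microglia markers was higher by 0.30 in RPF pair 4, against 0.022 to 0.20 in the other pairs. In RNA the microglia sum was nearly level in pair 4, at 0.013, against -0.060 to 0.069 in the other pairs. The part of these markers in the result was not tested.

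The other immediate early genes were mostly higher after DHPG as well, as were the members. Of 32 such genes tested in RNA, such as Fos, Jun, Arc and Dusp1, 29 were higher after DHPG, 10 with an unadjusted p under 0.05 and 0 lower at that level, and the median log2 fold change was 0.16. In RPF 28 of 31 were higher, 7 of them with an unadjusted p under 0.05, and the median was 0.046. None of them passed the adjusted threshold in either assay. The 2 with the smallest p in RNA were Fosb, an AP-1 subunit, with a log2 fold change of 0.31 ± 0.084 (SE), and Ier2, a nuclear protein induced by growth factors, with 0.42 ± 0.11 (SE). In RPF they were Cyr61, a secreted matricellular protein, with 0.20 ± 0.048 (SE, edgeR adjusted p = 0.0553), and Maff, a small Maf factor, with 0.21 ± 0.074 (SE). Pair 4 held the highest change of 21 of 32 of these genes in RNA and of 17 of 31 in RPF. Pair 3 did so for 0 genes in both assays, and its RPF median was -0.12 with 2 of 31 genes higher. In RPF pairs 1, 2 and 5 the medians of these genes were 0.091, 0.079 and 0.095. Over all genes tested, 52.1% were higher in RNA and 51.4% in RPF, to set beside the counts of this and the following lists. At an unadjusted p under 0.05, 5.2% of all genes were higher in RNA and 6.55% in RPF. In either direction, 1037 of 12935 genes were at that level in RNA and 1421 of 13208 in RPF.

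Upstream of the members, 17 of 26 activators of immediate early transcription, among them Srf, the Elk factors, CREB and its coactivators and the ERK kinases, were higher in RNA, with a median of 0.079 and 6 at an unadjusted p under 0.05. In RPF 12 of 26 were higher, with a median of -0.0086 and 1 lower at that level. Nfatc3, a calcineurin-dependent factor, had an RNA log2 fold change of 0.32 ± 0.10 (SE), and Mapk3, the kinase ERK1, had 0.23 ± 0.075 (SE). In RPF, Rps6ka3, the kinase RSK2, was at -0.16 ± 0.058 (SE) and lower in 5 of 5 pairs, and Srf was at 0.082 ± 0.052 (SE). Partners and corepressors of the members had medians of opposite sign in RNA and RPF. In RNA 9 of 13 were higher, with a median of 0.061 and 2 at an unadjusted p under 0.05, among them Rxra, the heterodimer partner of Nr4a1 and Nr4a2, at 0.27. In RPF 2 of 13 were higher, with a median of -0.062, and Arnt2, a dimer partner of Npas4, at -0.064 and the corepressor Ncor1 at -0.068 were lower in 5 of 5 pairs. None of these genes passed the adjusted threshold in edgeR.

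Among 22 late response and target genes, 13 were higher in RNA (median 0.034), with 1 at an unadjusted p under 0.05 in each direction. These were Dusp4, a phosphatase of ERK, at 0.22 and Psmb9, an immunoproteasome subunit whose RNA was at 1.78 CPM in basal slices, at -0.87 ± 0.38 (SE). In RPF 12 of 21 were higher (median 0.024), with 5 higher and 1 lower at that level. The smallest p values belonged to the granins Scg2, at 0.11 ± 0.029 (SE, edgeR adjusted p = 0.114), and Vgf, at 0.11 ± 0.031 (SE, edgeR adjusted p = 0.123), which were higher in 5 of 5 pairs. Of the genes that share a DNA-binding or PAS domain with the members, 13 of 15 tested were higher in RNA (median 0.065), 4 of them at an unadjusted p under 0.05. The smallest p values were those of the receptors Rora, at 0.30 ± 0.099 (SE), and Nr2f1, at 0.22 ± 0.080 (SE). In RPF 9 of 15 were higher (median 0.038), with 4 higher and 1 lower at that level, and the thyroid hormone receptor Thra was at -0.13 ± 0.031 (SE, edgeR adjusted p = 0.0553) and Rorb at 0.16 ± 0.055 (SE). None of the genes in these lists passed the adjusted threshold.

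In RPF the median of several marker lists was close to that of the members. Median log2 fold changes of the lists for excitatory neurons, dentate granule cells, CA3 neurons, interneurons, astrocytes, oligodendrocytes and microglia lay between -0.084 and 0.16 in RNA and between -0.031 and 0.073 in RPF. Astrocyte and microglia markers had RPF medians of 0.073 and 0.065, with 6 of 6 higher in each list, and oligodendrocyte markers had 0.065 in RPF and 0.16 in RNA, with 6 of 6 higher in RNA. In RPF 1 of 6 interneuron and 1 of 6 oligodendrocyte markers passed the adjusted threshold. Endothelial markers, which were low, had medians of -0.14 and -0.22. Thalamic neuron markers had a median of 0.60 in RNA and 0.37 in RPF, with 1 of 5 and 4 of 6 past the adjusted threshold in edgeR, and their summed RPF level was higher in pairs 1 to 4 and lower by 0.23 in pair 5. Rora, named above, is also on this list. The members' RPF values in pair 5 had a median of 0.071. The part of tissue composition in the members' values was not tested.

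Across all 10 RPF libraries the members varied together more than across the 9 RNA libraries, as a description in which depth, replicate number and treatment are shared. Over the 28 gene pairs the median Pearson correlation of log2 CPM was 0.68 in RPF, with 28 positive, and 0.36 in RNA, with 21 positive. The same values over pairs of all genes were not computed, so these cannot be read as particular to the members. DHPG replicate 4 was the highest library of 8 of the 8 members in RPF and 3 of the 8 in RNA. Its part in the correlations was not tested. The closest pair in RPF was Nr4a1 with Nr4a3 (0.92) and in RNA Nr4a2 with Nr4a3 (0.89). The most distant were Egr1 with Npas4 in RPF (0.070) and Egr4 with Nr4a3 in RNA (-0.25). Of the 20 genes with the highest correlation to each member in RNA, 0 were members, and only those of Nr4a1 included other immediate early genes, Per1 and Fosl2. In RPF, Nr4a3 had Nr4a1, Fosl2, Trib1 and Nfil3 among its 20, Nr4a1 had Nr4a3 and Trib1, Egr3 had Trib1 first (0.98) with Fosl2 further on, Egr2 had Egr3 and Nr4a2 had Pim1. The first 2 genes in RNA were Mnt and Rab11b for Egr1, C3ar1 and Eps8l3 for Egr2, Shisa7 and Ppard for Egr3, and Sh2b3 and Zfp36l1 for Egr4. They were Dpp9 and Triobp for Nr4a1, Jarid2 and Anln for Nr4a2, Mast4 and Larp1 for Nr4a3, and Cacna1b and Polm for Npas4, with correlations from 0.91 to 0.99 over these 16 genes. In RPF the leading genes were Ppil1 and Pex26 for Egr1, Mllt1 and Pde2a for Egr2, Trib1 and Arl4d for Egr3, Rab26 and E130012A19Rik for Egr4, Bag3 and Nedd9 for Nr4a1, Tnfrsf12a for Nr4a2, Lrrc10b and Arid5a for Nr4a3, and Ndnl2 and Creb5 for Npas4.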

How the data were processed

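RNA-seq and RPF libraries of hippocampal slices (19 samples, all mapped by their titles) were analysed. The authors trimmed adapters (cutadapt), discarded rRNA and tRNA reads (Bowtie2), aligned to mm10 (TopHat2), collapsed duplicates by UMI and counted with RSEM. The deposited values are expected counts, rounded and not normalized. RPFs were counted on coding sequences. The tables also hold 12 columns of replicates 6 to 8, which are no samples of this series and were not used. Expected counts split reads between paralogs in a way that cannot be undone.

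The software was sva 3.50.0, DESeq2 1.42.0, limma 3.58.1 and edgeR 4.0.16 in R 4.3.3. For DHPG against basal, edgeR's quasi-likelihood F test was fitted (TMM, filterByExpr, Benjamini-Hochberg over all genes tested), with adjusted p thresholds of 0.01 in RNA and 0.05 in RPF and TE. TE was the interaction of assay and treatment, with the replicate number within each assay as the block, so RNA and RPF of a lysate were not paired. Every p-value is two-sided and from edgeR unless another tool is named. The replicate number was a block, because deviations of same-numbered libraries from their group means correlated at 0.31 to 0.74 in RNA and 0.26 to 0.52 in RPF. The labels do not say whether replicates come from separate mice, so p-values measure the spread between these pools of slices. No 2 libraries of a group agreed within sampling noise. Log2 CPM of pairs used a prior count of 2. Lengths came from GENCODE M21 (96.0% of genes matched), taking the longest coding sequence of whole codons. The steps were tested on simulated data. Named were all members and, from each list, the 2 genes with the smallest p in each assay, and the 2 genes most like each member, of which some are not reported here. Members and lists were chosen with earlier results of these data known. Alternatives were DESeq2's size factors, no replicate block, no filter, a minimum of 10 counts per library, DESeq2, ComBat (log2 CPM with 0.5 added, without the unpaired library) followed by DESeq2, limma for TE, other thresholds and lengths, and each replicate number left out.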

Additional observations from a re-analysis of the deposited data

Results flagged for a closer look

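The members were screened for a library far from the others of its group, in 32 groups of 4 or 5 libraries, of which chance singles out about 1 in 20. In 4 groups such a library was found, and it was a library of replicate 4 each time. Egr1 RNA was at 71.0 CPM in basal replicate 4, where the other basal libraries had 132.7 to 145.1. Nr4a1 RPFs were at 212 CPM in DHPG replicate 4, where the others had 136 to 156. Nr4a3 RPFs were at 160.4 CPM in basal replicate 4 (126 to 133 in the others) and at 195 CPM in DHPG replicate 4 (119 to 136 in the others). The cause was not tested.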

How the results depend on the processing

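Of 231 fold changes of the members under the alternatives, 220 kept their direction and their side of the threshold, 4 passed it (Egr1 RNA at 0.37 under ComBat with DESeq2, 0.37 with no filter and 0.40 without replicate 2, and Egr1 RPF at 0.071 under ComBat) and 7 changed sign. These were Nr4a2 RNA at -0.058, Nr4a2 TE at 0.041 and the RPFs of Egr2, Nr4a2 and Nr4a3 at -0.040, -0.016 and -0.021 without replicate 4, and Npas4 RNA at 0.011 without replicate 2 and 0.028 without replicate 3. Leaving out 1 replicate number in turn, fold changes ran from -0.058 to 0.17 for Nr4a2 RNA, -0.12 to 0.028 for Npas4 RNA, -0.040 to 0.24 for Egr2 RPF, -0.016 to 0.027 for Nr4a2 RPF, -0.021 to 0.078 for Nr4a3 RPF and -0.16 to 0.041 for Nr4a2 TE. Without the replicate block 0 RNAs and 0 RPFs were called, and 0 of the 8 members had an unadjusted p under 0.05 in either assay (89 RNAs and 195 RPFs did). Over all genes 1 RNA was called, 0 with DESeq2 and the block, 0 with at least 10 counts, 7 with no filter, 200 under ComBat, and 0 (without replicate 3) to 22 (without replicate 2) with 1 replicate number left out. Calls in RPF numbered 29, against 96 with no filter, 427 under ComBat, 8 at an adjusted p of 0.01, and 3 (without replicate 2) to 71 (without replicate 3), with 10 without replicate 1 and 50 without replicate 5. In TE 0 genes to 8 (without replicate 2) were called. The members' RPF median was 0.12 without replicate 3. DESeq2 gave no adjusted p to 7 members in RPF with the block and to 1 member in each assay after ComBat. The cause of these differences was not tested. The median standard error of 0.10 in RNA and 0.060 in RPF limits what could be called.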
